A study of Mus musculus with 6 samples.

Results

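The Hox genes outside paralog group 5 were followed in embryonic mouse motor neurons. They were taken as every probe whose gene symbol is Hoxa, Hoxb, Hoxc or Hoxd followed by a number, leaving out Hoxa5, Hoxb5 and Hoxc5. This gave 54 of the 45281 probes and 35 of the 19057 named genes, whether or not a probe was detected. Of these genes 22 had 1 probe, 9 had 2, 2 had 3 and 2 had 4. The arrays came from cervical motor neurons of e12.5 embryos on a mixed C57BL/6, BALB/c and FVB background, collected by cell sorting. Both groups carried HB9::GFP, a reporter that makes motor neurons fluorescent, and each group had 3 arrays. The first group was wild type. The second, labelled Hox5 mutant, was Hoxa5 fl/fl with Olig2-Cre, a recombinase active in the progenitors of motor neurons, and Hoxc5-/- in all cells. Hoxb5 was not targeted.

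Hox genes encode homeodomain transcription factors and lie side by side in 4 clusters, Hoxa on chromosome 6, Hoxb on chromosome 11, Hoxc on chromosome 15 and Hoxd on chromosome 2. Within a cluster, genes at the 3′ end (low paralog numbers) are expressed from the hindbrain downwards and genes at the 5′ end (high numbers) only in the more caudal cord. In motor neurons these proteins act with Pbx and Meis cofactors to set the columns and pools that project to particular muscles, and neighbouring Hox proteins restrain each other's expression. Groups 4 to 8 are the ones known for cervical and forelimb levels, Hoxc9 for the thoracic cord and group 10 for the lumbar cord.

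The 3 Hox5 genes, which have 1 probe each, did not check the genotype. On the log2 scale their differences (labelled mutant minus wild type) were −0.45 for Hoxa5, −0.29 for Hoxb5 and 0.73 for Hoxc5. The sources used here do not say whether these probes lie inside the deleted stretches. The second group is therefore called the arrays labelled mutant, and each direction rests on the label. Between 19307 and 20307 probes per array were detected. Mutant replicate 1 stood apart, with a mean correlation of 0.952 with the other arrays against 0.976 to 0.980 for each of those. Markers of the motor neuron were present, with 9 to 11 of 12 detected on each array. Interneuron markers were present too, with 13 of 13 detected on each array. On mutant replicate 1 the 7 tested blood markers (of 10 with a probe) had a median 4.47 log2 units above the wild-type mean, the 6 endothelial markers (of 12) 2.98 and the 6 mesenchymal markers (of 12) 2.17. The 11 motor neuron markers were at −0.68 there and the 13 interneuron markers at −1.06. Summed over the tested blood markers, intensity ran from 1339 to 10625 on the wild-type arrays, and it was 73058, 2278 and 3113 on mutant replicates 1, 2 and 3. For motor neuron markers the sum ran from 5514 to 6609 on the wild-type arrays, and was 2576, 8027 and 4253. For interneuron markers it ran from 26131 to 31052, and was 14296, 28491 and 27889. Brightness differs by probe, so sums of different lists do not give the shares of cell types, and purity was not tested. Endothelial Cdh5, Flt1, Kdr, Pecam1, Tek and Tie1 did not pass the filter, with no probe detected on at least 3 arrays. Of the 12 endothelial genes with a probe, 11 were detected on mutant replicate 1 and 4 to 7 on the other arrays. The part of other cells in the Hox values was not tested, and the counts and medians of the Hox genes and of the lists are given with and without this array. In sorted bulk cells, fewer cells of a type and less RNA per cell cannot be told apart.

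Which Hox genes the sorted cells expressed was read from the detection p-value, the deposited measure of a probe's signal against negative controls. A gene counted as detected where 1 of its probes had a detection p under 0.05 on at least 3 of the 6 arrays. By this rule 23 of 35 genes were detected, against 54.8% of all named genes. Detection followed position in the cluster. It covered 6 of 7 genes of groups 1 to 3, 11 of 12 of groups 4 to 8, and 6 of 16 of groups 9 to 13. Every analysed gene of groups 2, 3, 4, 6 and 7 was detected, and no gene of group 12. By cluster the counts were 7 of 9 in Hoxa, 8 of 9 in Hoxb, 4 of 8 in Hoxc and 4 of 9 in Hoxd. Genes with several probes had more chances to be detected. Among genes with 1 probe, 14 of 22 were detected. Other rules gave 20 of 35 at a detection p under 0.01 (49.5% of all named genes), 25 with at least 1 array (66.1%) and 17 with all 6 arrays (47.5%, close to the share of the Hox genes).

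**Figure D1:**
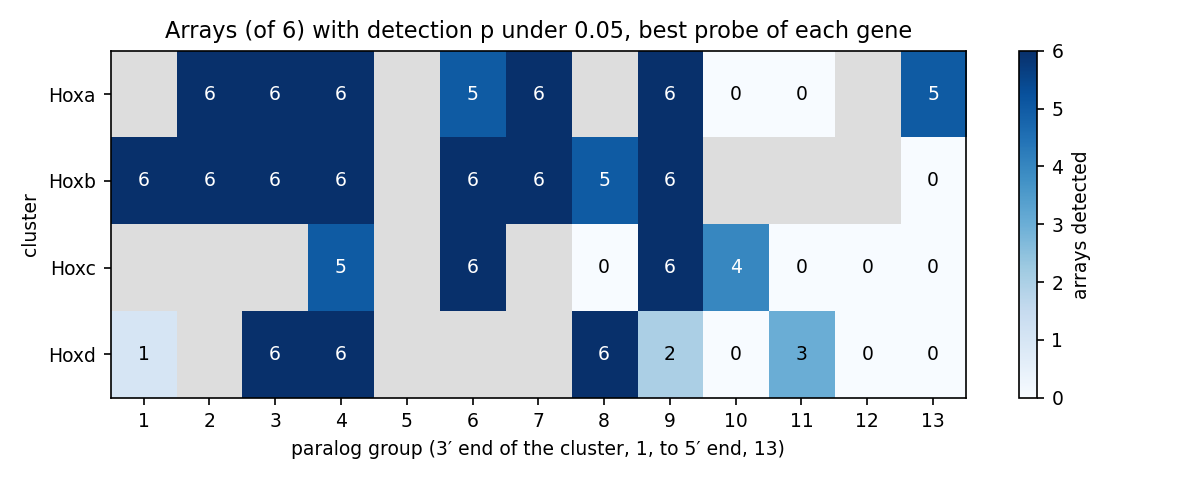
Number of arrays, out of 6, on which the best probe of each Hox gene had a detection p under 0.05, by cluster (vertical axis) and paralog group (horizontal axis). Grey cells hold no gene followed here. The 23 detected genes have 3 or more arrays and lie mostly in groups 2 to 9.

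Those with a detection p under 0.01 on all 6 arrays numbered 15, namely Hoxa2, Hoxa3, Hoxa4, Hoxa7, Hoxb2, Hoxb3, Hoxb4, Hoxb6, Hoxb7, Hoxb9, Hoxc6, Hoxc9, Hoxd3, Hoxd4 and Hoxd8. At this stricter rule 43.8% of all named genes were detected, close to the share of the Hox genes. Hoxa3 met it by 1 of its 4 probes only. Its remaining probes were detected on at most 1 array each, at deposited intensities of 81.8 to 120.5. The other 8 detected genes, Hoxa6, Hoxa9, Hoxa13, Hoxb1, Hoxb8, Hoxc4, Hoxc10 and Hoxd11, lay close to background. The probes that stand for them had deposited intensities of 88.6 to 172.4, where the median of all probes on an array was 97.7 to 109.8. A further 2 genes were detected on fewer than 3 arrays, Hoxd9 on 2 and Hoxd1 on 1. The other 10, Hoxa10, Hoxa11, Hoxb13, Hoxc8, Hoxc11, Hoxc12, Hoxc13, Hoxd10, Hoxd12 and Hoxd13, were detected on none. For these only a bound exists, and a probe that is not detected does not show that its gene was silent.

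Several members run against their neighbours. Hoxc8, a regulator of forelimb motor pools, had deposited intensities of 98.7, 89.7 and 99.9 on the wild-type arrays and 104.5, 105.9 and 106.8 on the arrays labelled mutant. The lower intensities were all in wild type, but after normalization the groups overlapped. Its detection p ran from 0.100 to 0.514, so it was not detected between Hoxc6 and Hoxc9, which both were. It had 1 probe, and how well that probe performs was not tested. Hoxa13, a gene of limb and hindgut, was detected on 5 arrays although Hoxa10 and Hoxa11 were detected on none. Its intensities were 113.7, 101.0 and 115.1 on the wild-type arrays and 122.0, 124.5 and 132.5 on the arrays labelled mutant, close to the arrays' medians. Hoxb9, at the 5′ side of its cluster, was well above background on every array, with intensities of 554.1 to 702.5 in wild type and 686.1 to 861.5 on the arrays labelled mutant. Hoxd11 met the rule with detection on exactly 3 arrays, 1 wild-type and 2 labelled mutant, and no longer met it when mutant replicate 1 was left out, where 22 of 35 genes were detected against 53.3% of all named genes.

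In the Hoxd cluster Hoxd3, Hoxd4 and Hoxd8 were detected on all 6 arrays and Hoxd10, Hoxd12 and Hoxd13 on none, while Hoxd1, Hoxd9 and Hoxd11 lay between, on 1, 2 and 3 arrays. The 250 bases before the RefSeq start (GRCm38.p6, plus strand) of a pair of genes from each side are given here, chosen after the values were seen, with every CpG in capitals. CpG-rich starts are where Polycomb proteins hold silent Hox genes, as background. The windows are Hoxd13 at chr2:74667975-74668224, Hoxd10 at chr2:74691641-74691890, Hoxd8 at chr2:74704365-74704614 and Hoxd4 at chr2:74721728-74721977.
Hoxd13: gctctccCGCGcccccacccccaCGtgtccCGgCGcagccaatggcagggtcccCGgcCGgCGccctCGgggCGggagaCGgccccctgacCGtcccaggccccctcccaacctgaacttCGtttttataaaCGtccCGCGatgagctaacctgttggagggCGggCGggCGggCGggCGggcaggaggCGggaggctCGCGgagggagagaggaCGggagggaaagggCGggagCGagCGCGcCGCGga
Hoxd10: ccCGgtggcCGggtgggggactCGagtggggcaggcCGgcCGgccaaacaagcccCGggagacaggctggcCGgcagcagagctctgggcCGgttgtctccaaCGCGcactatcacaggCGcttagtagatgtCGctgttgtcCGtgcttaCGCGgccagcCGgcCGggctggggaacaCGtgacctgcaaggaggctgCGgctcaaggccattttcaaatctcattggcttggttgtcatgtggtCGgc
Hoxd8: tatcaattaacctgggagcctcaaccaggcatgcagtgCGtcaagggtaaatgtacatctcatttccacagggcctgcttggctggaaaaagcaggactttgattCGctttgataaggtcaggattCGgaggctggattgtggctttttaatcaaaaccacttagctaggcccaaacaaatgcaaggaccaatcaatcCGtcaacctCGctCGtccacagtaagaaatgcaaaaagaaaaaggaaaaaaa
Hoxd4: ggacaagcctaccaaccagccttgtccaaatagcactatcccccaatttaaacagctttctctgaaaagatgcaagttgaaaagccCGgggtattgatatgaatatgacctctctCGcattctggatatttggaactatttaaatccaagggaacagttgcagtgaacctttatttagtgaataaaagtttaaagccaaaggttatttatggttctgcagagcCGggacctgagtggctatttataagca

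The undetected Hoxd13 and Hoxd10 windows held 31 and 20 CpGs, and the detected Hoxd8 and Hoxd4 windows 6 and 3. Over the table of 32851 promoters the median was 6. The contrast did not hold for the other windows, within Hoxd or beyond. Detected Hoxd3 held 12 CpGs and 1 of the windows of Hoxd11 held 20, while Hoxd12 held 10 and Hoxd9 held 13. Of the 35 genes, 21 had a window in the table, with 23 windows in all. The 15 windows of detected genes held 2 to 35 CpGs (median 8) and the 8 of genes that did not meet the rule 7 to 31 (median 16.5), so the ranges overlapped. Hoxa13, with the most CpGs at 35, was among the detected genes. A retinoic acid receptor core motif, AGGTCA, was searched on both strands because retinoic acid opens the 3′ genes of the clusters. It lay in 6 of the 23 windows, those of Hoxb4, Hoxc4, Hoxd3, Hoxd4, Hoxd8 and Hoxd10, against 14.0% of all promoters. The Pbx-Hox motif TGATNNAT lay in 4, those of Hoxa2, Hoxb1, Hoxb8 and Hoxd11, against 7.68% of all promoters. No window held both motifs. A match is a string of letters in a window and not a binding site.

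The comparison of the arrays labelled mutant with wild type asks whether loss of Hox5 function goes with a change in the other Hox genes. None passed. The 23 detected genes were tested with limma inside a fit of all 13638 features, after background correction, log2 and quantile normalization, with each gene represented by its brightest probe. Passing meant a Benjamini-Hochberg adjusted p under 0.05 over all features. That was met by 0 of 23 Hox genes, against 0% of all features, and each Hox gene had a limma adjusted p of 0.997. At an unadjusted p under 0.05, limma counted 250 of the 13638 features. Only Hoxc6 among the Hox genes was there, on the lower side, where 0.983% of all features lay, and none on the higher side, where 0.851% lay. Fitted with an intensity trend and robust variance, limma passed 0 features too. Since no label tells if 1 embryo or a pool made up each sample, these p-values measure the spread between 6 samples only.

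**Figure D2:**
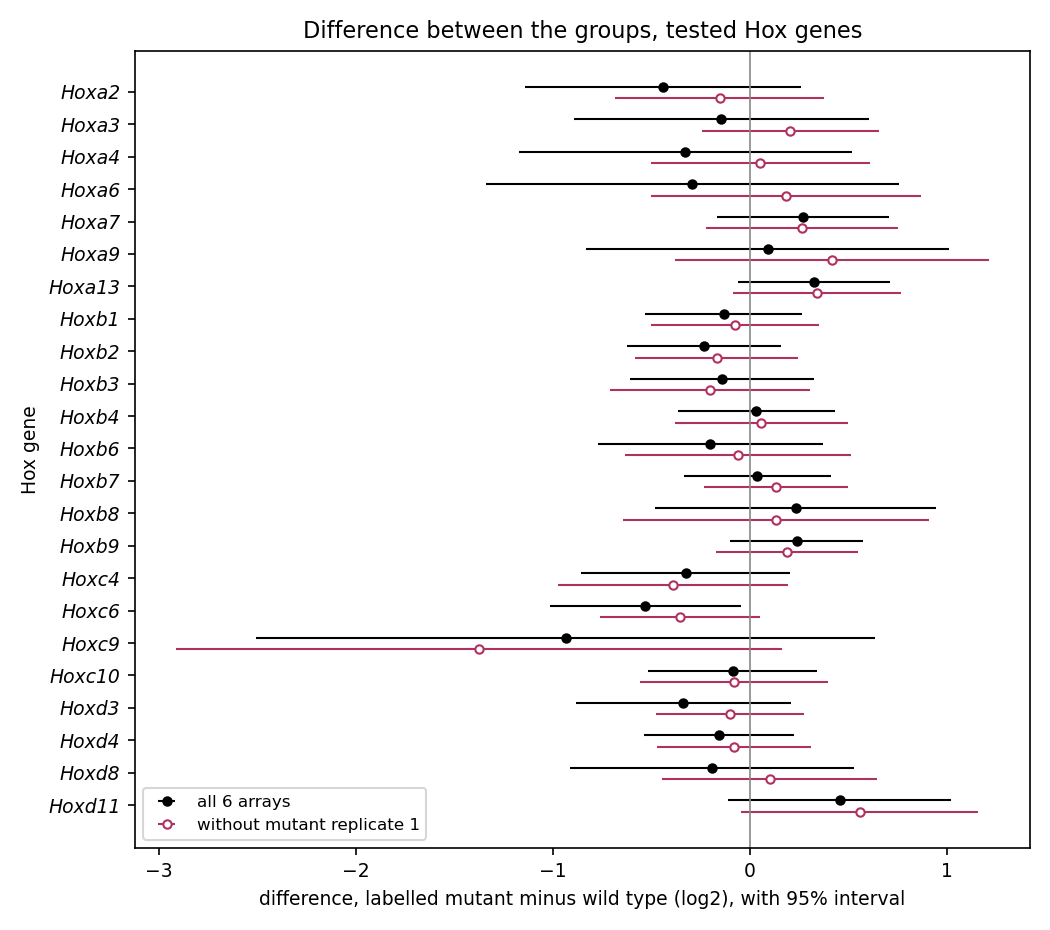
Difference between the arrays labelled mutant and wild type for the 23 tested Hox genes (log2 scale, horizontal axis), with 95% confidence intervals from limma, over all 6 arrays and without mutant replicate 1. Only the interval of Hoxc6 over all 6 arrays lies wholly below 0, at −1.02 to −0.05.

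Hoxc6, which specifies forelimb-level motor neurons and lies next to Hoxc5, was the only tested Hox gene with a 95% interval wholly below 0. Its log2 intensities were 14.39, 14.69 and 14.69 on wild-type replicates 1, 2 and 3 and 13.70, 14.14 and 14.33 on mutant replicates 1, 2 and 3. Every array labelled mutant lay below every wild-type array, but narrowly, with 14.33 on mutant replicate 3 against 14.39 on wild-type replicate 1. The means were 14.59 ± 0.170 (SD, n = 3) and 14.06 ± 0.321 (SD, n = 3), a 1.45-fold lower level at a difference of −0.53 (95% interval −1.02 to −0.05, limma adjusted p = 0.997). Before normalization the intensities were 23752, 22636 and 23724 against 13419, 18077 and 22335, which also did not overlap. Without mutant replicate 1 the difference was −0.35 (95% interval −0.76 to 0.05).

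Hoxc9, which sets thoracic motor neuron identity and represses more rostral Hox genes, varied most. Its log2 values were 7.42, 8.34 and 9.47 on the wild-type arrays and 8.36, 6.29 and 7.79 on the arrays labelled mutant. The groups overlapped, and wild-type replicate 3 was the highest and mutant replicate 2 the lowest array. The pooled SD of 1.05 exceeded that of 98.1% of all features. The difference was −0.94 (95% interval −2.51 to 0.64), and it moved with single arrays. It was −1.38 without mutant replicate 1, −0.34 without mutant replicate 2, −0.41 without wild-type replicate 3 and −1.43 without wild-type replicate 1, and −1.89 with array weights. How far caudally each dissection reached is not stated by the labels.

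**Figure D3:**
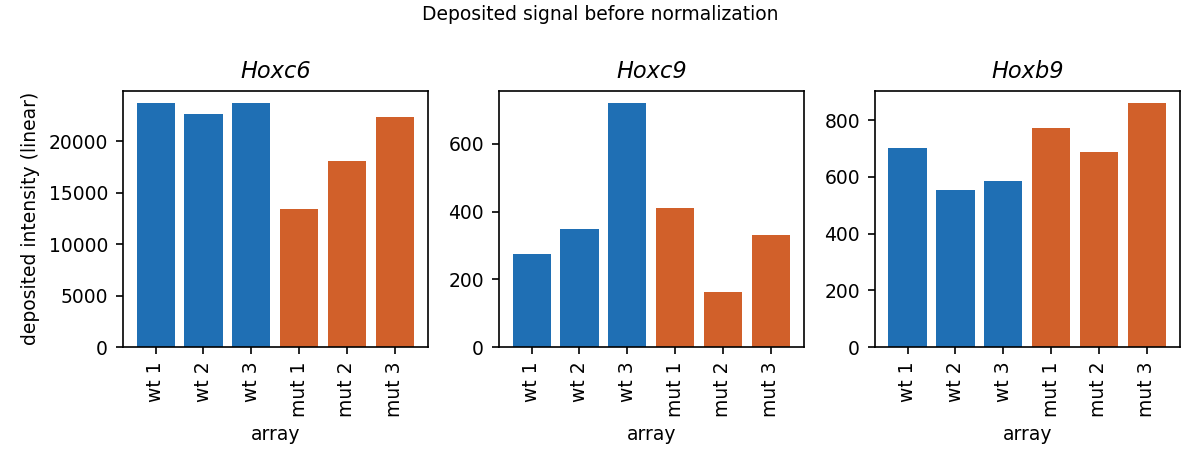
Deposited intensity before normalization (linear scale from 0, vertical axis) of Hoxc6, Hoxc9 and Hoxb9 on each array, wild type in blue and labelled mutant in orange. Hoxc6 is at most 22335 on the arrays labelled mutant and at least 22636 on the wild-type arrays, while Hoxc9 runs from 162.8 to 721.1 with the groups overlapping.

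The other tested members of the Hoxc cluster, Hoxc4 and Hoxc10, also had negative differences, without passing. Hoxc4, which flanks Hoxc5 on its 3′ side and acts at cervical levels, had log2 values of 4.88, 5.04 and 5.59 in wild type and 4.97, 4.93 and 4.62 on the arrays labelled mutant. It was near background and the groups overlapped, with a difference of −0.33 (95% interval −0.86 to 0.20). Hoxc10, a lumbar gene, differed by −0.09 (−0.52 to 0.34). All 4 tested Hoxc genes outside group 5 were therefore lower, with a median of −0.43. Without mutant replicate 1, 4 of 4 were lower, with a median of −0.37. Of these, Hoxc4 and Hoxc10 lay near background. Hoxc5, left out of this count, went the other way, at 0.73 and at 1.10 without mutant replicate 1. Over all features the median was −0.01, and 52.6% were lower.

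Hoxb9 and Hoxa13 were the only tested members with every array labelled mutant above every wild-type array. Among members that were not tested, Hoxd10 also separated that way after normalization, at 4.37, 4.38 and 4.28 against 4.69, 4.58 and 4.44, but it was detected on no array. Other probes that failed the filter separated the opposite way, those of Hoxb1 (−0.45), Hoxa13 (−0.10) and Hoxd11 (−0.09). Hoxb9, a gene of the thoracic cord and rib cage, stood at 9.11, 9.13 and 9.14 in wild type and 9.46, 9.19 and 9.43 on the arrays labelled mutant. Its wild-type values almost coincided, and the difference was 0.24 (95% interval −0.10 to 0.57). Before normalization the groups overlapped, with a deposited intensity of 702.5 on wild-type replicate 1 and 686.1 on mutant replicate 2. Hoxa13 stood at 5.10, 4.87 and 5.32 against 5.39, 5.39 and 5.48, a difference of 0.32 (−0.06 to 0.71). Its other detected probe went the opposite way, at −0.23, so no direction is given for the gene. Groups that did not overlap were thus found in 1 of 23 Hox genes on the lower side, against 2.84% of all features, and in 2 of 23 on the higher side, against 2.66%.

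Groups 1 to 3, the hindbrain-side genes, were lower in 6 of 6 tested cases with a median of −0.19, none passing. Hoxa2, a selector of hindbrain and neural crest identity, had log2 values of 10.59, 11.14 and 10.51 in wild type and 9.73, 10.65 and 10.54 on the arrays labelled mutant. Only mutant replicate 1 lay below the wild-type range, and the difference of −0.44 (95% interval −1.14 to 0.26) became −0.15 without it. The second Hoxa2 probe gave −0.34, and −0.03 without that array. Hoxd3, which patterns the axial skeleton, stood at 9.60, 9.57 and 9.45 against 8.73, 9.56 and 9.31. Again mutant replicate 1 was the lowest, and −0.34 became −0.10 without it. Hoxb2, which acts in hindbrain segments, differed by −0.23 and Hoxb1, of the fourth hindbrain segment, by −0.13. Hoxb3 was lower at all 4 of its detected probes, from −0.34 to −0.02. Without mutant replicate 1 these probes differed in sign, from −0.29 to 0.09. Hoxa3, whose RefSeq span overlaps those of Hoxa4, Hoxa5 and Hoxa6, passed the filter by 1 of its 4 probes. That probe differed by −0.15 over all arrays and by 0.20 without mutant replicate 1.

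Of the 11 tested genes of groups 4 to 8, which pattern the cervical and forelimb cord, 7 were lower, with a median of −0.19. Hoxa4, a neighbour of Hoxa5 in the cluster, read 10.96, 11.02 and 10.38 in wild type and 9.70, 10.98 and 10.70 on the arrays labelled mutant. Its difference was −0.33 (95% interval −1.17 to 0.52) with mutant replicate 1 and 0.05 without. Hoxa6, on the other side of Hoxa5, read 5.33, 6.33 and 5.96 against 4.63, 6.00 and 6.11, and was not detected on mutant replicate 1. There too the sign turned without that array, from −0.29 to 0.18. Hoxa7, whose protein shares the cervical to thoracic range of group 7, was the member of this band furthest on the higher side. It read 12.17, 12.55 and 12.64 against 12.73, 12.53 and 12.89, with overlap, a difference of 0.27 (−0.17 to 0.70) and 0.26 without mutant replicate 1. Hoxb7 differed by 0.04 (−0.33 to 0.41), Hoxb4 by 0.03 (−0.37 to 0.43) and Hoxd4 by −0.16 (−0.54 to 0.22). Hoxb6 was at −0.20, Hoxd8 at −0.19 and Hoxb8, close to background, at 0.23.

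**Figure D4:**
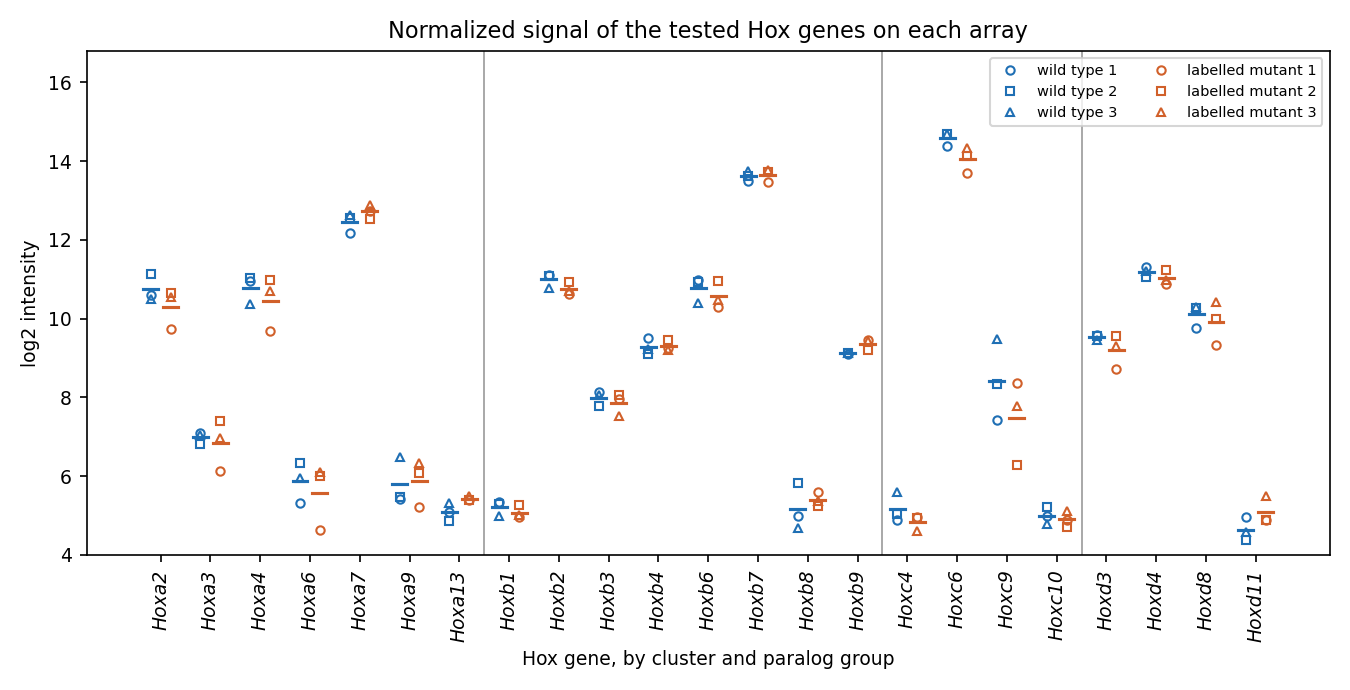
Log2 intensity after background correction and quantile normalization of the 23 tested Hox genes (horizontal axis, by cluster and paralog group) on each of 3 wild-type arrays and 3 arrays labelled mutant. The groups overlap for all genes except Hoxc6, Hoxb9 and Hoxa13, and heights are comparable within a gene only.

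Of the 6 tested genes of groups 9 to 13, 2 were lower and 4 higher at their brightest probes, with a median of 0.16 (0.26 without mutant replicate 1). Detected probes of Hoxa9 and of Hoxa13, both among the 4, disagreed in sign, so this count gives no direction for the band. Besides Hoxc9, Hoxc10, Hoxb9 and Hoxa13, these were Hoxa9 and Hoxd11. Hoxa9, a thoracic and lumbar gene, differed by 0.09 at its brightest probe and by −0.20 at its other detected probe. Hoxd11, which patterns limb and lumbar segments, read 4.97, 4.39 and 4.57 in wild type and 4.90, 4.89 and 5.51 on the arrays labelled mutant. It differed by 0.45 (95% interval −0.11 to 1.02), with overlapping groups at background brightness. The other Hoxd11 probe, detected on no array, differed by −0.09.

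The balance of signs over all members rested on mutant replicate 1. With all 6 arrays 15 of 23 Hox genes were lower, with a median difference of −0.15, where 52.6% of all features were lower. Without that array 11 of 23 were lower and the median was 0.05, where 49.0% of all features were lower. It was the lowest of the 6 arrays for 13 of the 23 genes. Relative to the wild-type mean, the median Hox gene stood at −0.25 on mutant replicate 1, 0.07 on replicate 2 and −0.07 on replicate 3, and the median of all features at −0.06 on mutant replicate 1. In the Hoxa cluster 4 of 7 genes were lower with it and 1 of 7 without, and in groups 4 to 8 the count went from 7 to 4 of 11. In groups 1 to 3, 5 of 6 were lower without it, with a median of −0.13. Without that array the counts of genes whose groups did not overlap were again 1 lower and 2 higher, against 6.52% and 7.08% of all features. An unadjusted p under 0.05 was then reached by 0 Hox genes in limma, against 1.39% and 1.09% of all features on the lower and higher sides.

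**Figure D5:**
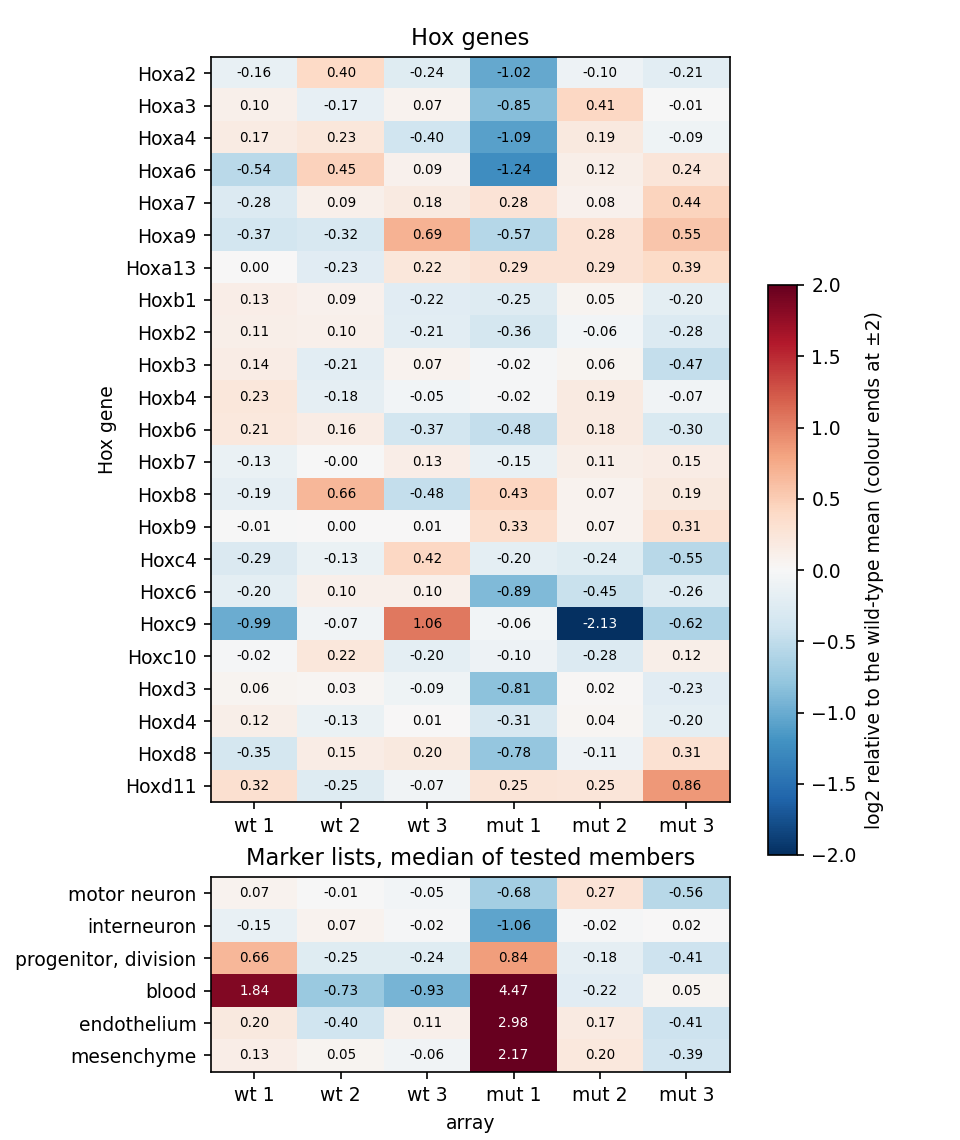
Log2 intensity relative to the wild-type mean for each of the 23 Hox genes (upper panel) and the median of 6 marker lists (lower panel), on each array, with colour running from −2 to 2. Mutant replicate 1 has the lowest value of 13 Hox genes, and the highest blood, endothelial and mesenchymal marker medians, at 4.47, 2.98 and 2.17.

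Proteins that work with or act on Hox genes gave no pass either. Of 11 cofactors of the Pbx, Meis, Pknox and Tshz families, 0 passed in either direction, with 8 lower, 3 higher and a median of −0.13. Without mutant replicate 1, 5 were lower and 6 higher, with a median of 0.05. Meis2 and Meis1, which bind DNA together with Hox and Pbx proteins, differed by −0.44 and −0.23 over all arrays and by −0.12 each without mutant replicate 1. Among 18 tested regulators of the clusters (Polycomb and trithorax proteins, Ctcf, retinoid genes), 0 passed, 9 were lower and 9 higher, and the median was 0.00. Without mutant replicate 1, 5 were lower and 13 higher, with a median of 0.06. The Polycomb subunits Cbx7 and Cbx2 differed by 0.47 and 0.33 over all arrays and by 0.53 and 0.50 without mutant replicate 1. The caudal genes Cdx1, Cdx2 and Cdx4 did not pass the filter. Of 15 tested genes on a list meant for the flanks of the clusters, 0 passed, 10 were lower and 5 higher, with a median of −0.16. The counts were the same without mutant replicate 1, with a median of −0.12. Positions of the listed genes are not given here, so not each need lie beside a cluster. Smug1, a DNA repair enzyme, was at −0.85 over all arrays and −0.29 without mutant replicate 1. Snf8, a subunit of the endosomal sorting machinery, differed by −0.25 over all arrays and by −0.24 without mutant replicate 1. Among 20 tested motor neuron genes listed for a possible link to Hox, 0 passed, 11 were lower and 9 higher, with a median of −0.09. Without mutant replicate 1, 12 were lower and 8 higher, with a median of −0.03. The list also holds general motor neuron markers (Mnx1, Isl1, Isl2 and Lhx3), so its counts are not those of Hox targets alone. Nos1, the neuronal nitric oxide synthase, differed by 0.49 over all arrays and by 0.62 without mutant replicate 1. It was detected on 1 wild-type array and on 3 arrays labelled mutant. Lhx3, a selector of medial motor column identity, was at −0.66 over all arrays and −0.31 without mutant replicate 1.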

How the data were processed

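RNA of 3 wild-type and 3 Hox5 mutant samples was amplified with an Illumina kit and hybridised to 1 single-colour bead array each, per the labels. Per the file headers, each array has a column of deposited linear intensity and a column of deposited detection p-values. No source used here names the scanner software or the slides. Quantile normalization without background correction matched the authors' normalized intensities within 1.48%. No column of per-sample values lacked a sample (0 columns).

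In R 4.3.3, limma 3.58.1 corrected the background (normexp, negative controls inferred from detection p, offset 16), then values were put on a log2 scale and quantile normalized. Probes with detection p under 0.05 on at least 3 of 6 arrays were kept (19735). Named genes took their probe with the highest mean, and unnamed probes stood alone, giving 13638 features. Symbols came from the platform annotation (34885 probes with 1 symbol, 18 with several, 10378 unnamed here), of which 34807 matched RefSeq GRCm38.p6 and 0 changed. Promoters are RefSeq's, same assembly. The build of the array design is not stated in the labels.

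Groups were compared with lmFit and eBayes, genotype as the only term. Left-out arrays left the fit only. All tested Hox genes were named, with the 2 list members of smallest p. The test was checked on simulated data. Members and lists were chosen with earlier results of these data known. Signal over background limits detection, and the 6 arrays limit precision. Same-numbered samples had correlated deviations of 0.32, 0.01 and 0.10, so the numbers were not taken as pairs. Alternatives covered background correction, normalization, filter, probe choice, variance model, array weights, the replicate block and each array left out.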

Additional observations from a re-analysis of the deposited data

How the results depend on the processing

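No Hox gene passed under any of the 20 alternatives, and the smallest limma adjusted p of any was 0.834. Hoxc6 stayed lower throughout, from −0.67 to −0.35. Over all features 1 passed with median scaling (Thap4), and 0 to 1 when 1 array was left out (Cops8, without mutant replicate 3), both named after their values were seen. Leaving out 1 array gave 0 to 0 Hox genes passing, 11 to 17 lower, 3 to 7 of 23 with groups that did not overlap (9.91% to 18.9% of all features), and a median from −0.24 to 0.052. With both arrays numbered 1 left out, an alternative with fewer samples, 6 of 23 did not overlap, against 30.7% of all features, and the median was −0.011. With array weights it was 0.023. The cause of these shifts was not tested.

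Of single genes, 25 values over 12 genes turned in sign and 426 did not. Array weights gave Hoxa3 0.19, Hoxa4 0.14, Hoxa6 0.017, Hoxb1 0.023 and Hoxb6 0.11. Without both arrays numbered 1, Hoxa3 was 0.25, Hoxa4 0.14 and Hoxb6 0.044, and with every probe on its own Hoxa9 was −0.053. With 1 array left out, Hoxa3 ran from −0.43 to 0.20, Hoxa4 from −0.59 to 0.052, Hoxa6 from −0.57 to 0.18, Hoxa9 from −0.14 to 0.43, Hoxb3 from −0.25 to 0.021, Hoxb4 from −0.058 to 0.14, Hoxb7 from −0.028 to 0.13, Hoxb8 from −0.0073 to 0.56, Hoxc10 from −0.19 to 0.022 and Hoxd8 from −0.44 to 0.099.

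With the replicate block, which the numbers did not warrant, 0 Hox genes passed in limma, 15 were lower and the median was −0.15, and 379 features had an unadjusted p under 0.05 against 250. Not every sample correlated best with its own number. Detection rules gave 15 to 25 of 35 Hox genes. Without a filter 35 genes were tested, 18 lower, and 829 features had an unadjusted p under 0.05. Dim probes are limited by signal over background.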
